A study of Mus musculus with 24 samples.

Results

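The comparison described here is the response of the central suprachiasmatic nucleus (SCN) of the mouse to a light pulse. Its members are the 8 arrays labelled as central SCN, 4 after the pulse and 4 after a sham treatment, out of 24 arrays in the series. The other 16 arrays hold the ventral and the dorsal SCN under the same treatments, 4 arrays in each group. All groups were C57BL/6 mice with no genetic modification named in the labels, obtained at 8 weeks of age and housed individually. They lived in constant dim red light for at least 7 days, received either light for 30 min at a phase that advances the clock or the sham procedure for 30 min, and were killed 3.5 h afterwards. The regions were cut by laser from haematoxylin-stained cryosections, and their RNA was amplified and labelled in 2 batches, A and B, with 2 arrays of each group in each batch. The age at the pulse, the number of animals behind an array, the arrays that share an animal and the borders drawn around the central region are not given in the sources used here. The p-values therefore measure the spread between these arrays, which may in part be technical.

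The SCN is the hypothalamic nucleus that sets daily rhythms. Light at night reaches it through retinal fibres that release glutamate, calcium enters the target neurons, and the kinases this activates phosphorylate the transcription factor CREB, which binds cAMP response elements and turns on immediate early genes and the clock genes Per1 and Per2. Products of the first wave, such as the Egr and Fos factors, go on to regulate later genes, among them genes for secreted peptides and synaptic proteins. Within the nucleus, the core is known for its neurons that make Grp, gastrin-releasing peptide, and Vip, vasoactive intestinal peptide, and the shell for those that make vasopressin (Avp).

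Vip, Grp and Avp placed the central samples beside the ventral ones. In the sham groups, the mean log2 value of Vip in batches A and B was 11.4 and 12.1 in the central region, 12.1 and 12.8 in the ventral region, and 7.58 and 9.35 in the dorsal region. Grp was at its highest in the central region, at 10.4 and 11.3, and Avp at its lowest there, at 5.78 and 7.19 against 7.79 and 9.37 in the dorsal region. Oxytocin (Oxt), made by neighbouring hypothalamic neurons, read 4.63 and 5.68 in the central region and 7.75 and 9.27 in the dorsal region. The central samples thus carried Vip and Grp at a high level and Avp at a low one. Other genes counted as core or shell markers below did not all follow this order. The core gene Rorb read 6.06 and 9.13 in the central region and 7.01 and 9.51 in the dorsal region. The shell gene Prok2 read 3.86 and 9.36 in the central, 3.74 and 8.99 in the dorsal and 3.22 and 7.59 in the ventral region.

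The batches were not on one scale: the array medians were 3.52 to 3.62 in batch A but 4.81 to 5.07 in batch B, so a level is compared only within a batch, and the batch was a term of the fit. The interquartile range of the arrays differed too, at 1.93 to 2.63 in batch A and 3.59 to 4.12 in batch B. The batch term takes out a shift but not such a difference in range. A difference pooled over the batches is therefore a mean over unlike scales. Moderated two-sided tests in limma were made on 13494 genes in 1 fit over all 24 arrays, and a gene whose Benjamini-Hochberg adjusted p was under 0.05 is said to have changed. A pair of arrays stood apart. Light array 2 of the central region, in batch A, had a median correlation of 0.955 with its batch, where the other batch A arrays had 0.976 to 0.982, and it read below light array 1 for 10373 of the 13494 genes (76.9%). Dorsal light array 4 bears on the central comparison through the shared estimates of the spread and the batch. It had a median correlation of 0.913 with its batch. Its Gapdh 3′ minus 5′ signal was 5.41, a sign of short cDNA, where the other batch B arrays had 0.887 to 1.07. The batch A arrays, central ones included, lay above these at 2.02 to 3.28, so the batches differed in this measure too. The values of dorsal light array 4 also enter every dorsal difference given here. Genes and counts of the dorsal SCN, and central genes near the threshold, are therefore given without it as well.

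After the light pulse, 52 genes had changed in the central SCN, 0.385% of the 13494 tested. Of these, 40 were higher (0.296%) and 12 lower (0.0889%). The higher genes included synaptic and secreted proteins (Nptx1, Vgf, Prok2), activity-induced transcription factors (Egr3, Crem) and the clock gene Per2, and the lower genes included a synaptotagmin (Syt17), a pair of Wnt receptors (Fzd5, Fzd8) and a sodium channel (Scn1a). The log2 differences of the raised genes ran from 0.58 to 3.06 with a median of 1.32, and those of the lowered genes from -2.02 to -0.73 with a median of -1.02. Over all tested genes the median difference was -0.08. All 52 genes went the same way in both batches. In 51 of them the light and the sham arrays did not overlap in either batch, the exception being Plch1. The same separation was present in 403 genes that were higher (2.99%) and 858 that were lower (6.36%) among all tested.

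**Figure D1:**
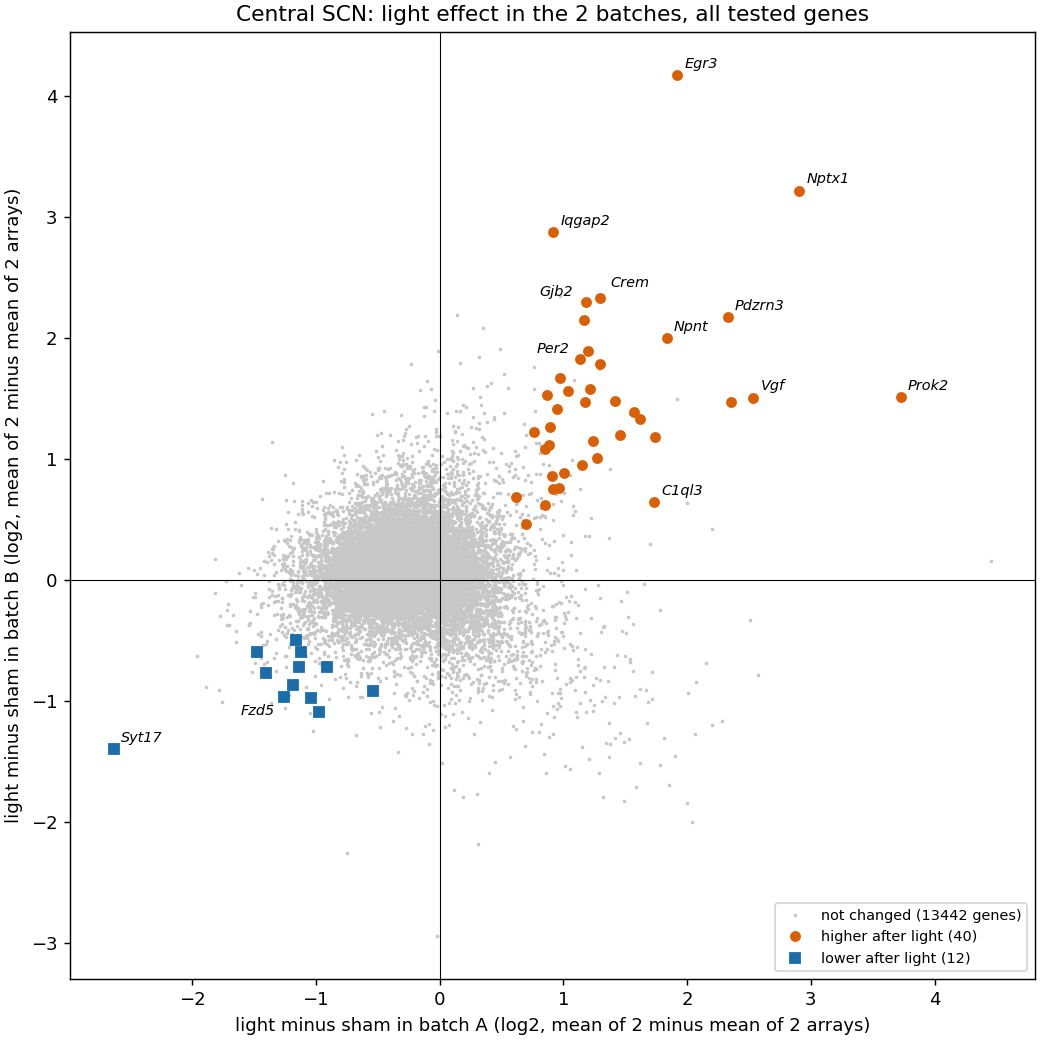
Light minus sham in batch A (horizontal axis) and batch B (vertical axis) for all tested genes, as log2 differences between means of 2 arrays. The 40 raised genes lie in the upper right and the 12 lowered genes in the lower left, with Nptx1 at 2.91 and 3.22, Egr3 at 1.92 and 4.17, Prok2 at 3.73 and 1.51 and Syt17 at -2.63 and -1.40.

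The number of genes called varied with the arrays that entered the fit. Leaving out dorsal light array 4 gave 164 genes, 97 higher and 67 lower, among them all 52. Leaving out central light array 2 gave 41 genes, 37 higher and 4 lower, and leaving out both arrays gave 128, of which 102 were higher and 26 lower, with 48 of the 52 kept. Without sham array 2, 3 or 4 the count was 24, 30 or 34, and without light array 3 it was 34. A fit to the 8 central arrays alone called 18 genes, all higher, of which 14 were among the 52: Nptx1, St8sia6, Megf10, Pdzrn3, Vgf, Nudt6, Tinf2, Gch1, Egr3, Npnt, Creb3l1, Foxn4, Ctla2a and Pcsk1. Whichever central array was left out, 20 of the 52 passed, 18 raised and 2 lowered, the 2 being Ankrd35 and Pdgfa. In what follows, array values are log2 expression values in the order replicate 1 and 2 (batch A), then 3 and 4 (batch B). Each difference is between 4 light and 4 sham arrays. Its standard error (SE) is the moderated one of the fit to all 24 arrays, so it rests on the spread in all 6 groups and not on the central arrays alone.

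Nptx1, Egr3 and Crem, which neuronal activity is known to induce, were among the raised genes. Nptx1 encodes neuronal pentraxin 1, a secreted protein that gathers AMPA-type glutamate receptors at synapses. It measured 7.61, 7.96, 10.16 and 9.70 after light and 4.80, 4.96, 6.32 and 7.12 after sham. The difference was 3.06 ± 0.24 (8.35-fold, adjusted p = 1.37e-07), and the groups lay far apart in both batches. Egr3, a zinc finger transcription factor of the immediate early class, measured 5.24, 4.13, 7.96 and 7.40 after light and 2.65, 2.87, 3.12 and 3.90 after sham, a difference of 3.05 ± 0.51 (adjusted p = 0.00525). All its sham arrays were below the log2 level of 4 used as the filter on low values, so no fold is given. A further probe set of Egr3, with a mean of 3.81, went the other way at -0.24 (adjusted p = 0.977 over 25067 probe sets). Crem, the cAMP-responsive modulator gene, which also makes the repressor ICER, measured 5.33, 4.90, 8.51 and 8.26 after light and 3.79, 3.85, 6.86 and 5.25 after sham. It rose by 1.81 ± 0.31 (adjusted p = 0.00525), with the sham arrays of batch B further from each other than the light arrays were. These 3 genes kept their call whichever central array was left out.

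The neuropeptide precursor Vgf, whose peptides act on energy balance and synaptic strength, was high in the sham group and higher after light. Its arrays measured 10.86, 11.20, 11.80 and 11.85 after light and 8.90, 8.10, 10.80 and 9.84 after sham, a difference of 2.02 ± 0.28 (4.06-fold, adjusted p = 0.000806). The lowest light array of each batch was above the highest sham array. Pcsk1, prohormone convertase 1, which cuts peptide precursors in secretory granules, measured 4.60, 4.91, 8.01 and 7.73 after light and 3.92, 3.64, 6.08 and 6.33 after sham (1.32 ± 0.28, adjusted p = 0.0338). Chromogranin A (Chga), a structural protein of those granules, measured 10.51, 11.03, 10.73 and 10.84 after light and 9.93, 9.79, 9.81 and 10.04 after sham (0.88 ± 0.18, 1.84-fold, adjusted p = 0.0193). Its light arrays were above its sham arrays in each batch.

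Prokineticin 2 (Prok2), a peptide by which the SCN is known to signal to its targets, measured 7.36, 7.82, 10.85 and 10.89 after light and 3.67, 4.06, 9.73 and 8.99 after sham. The difference of 2.62 ± 0.56 (adjusted p = 0.0345) was uneven, at 3.73 in batch A, where sham signal was at the filter level, and 1.51 in batch B. C1ql3, a secreted C1q-like protein that organizes synapses, measured 9.19, 9.30, 11.00 and 11.26 after light and 7.51, 7.52, 10.51 and 10.46 after sham (1.19 ± 0.23, adjusted p = 0.0172). Here too the gap was wider in batch A (1.73) than in batch B (0.64), and the groups did not overlap in either. Vgf kept its call without any 1 central array. Without sham array 2, Prok2 had an adjusted p of 0.161 and C1ql3 of 0.104, and without sham array 3, Pcsk1 had 0.159 and Chga 0.105.

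**Figure D2:**
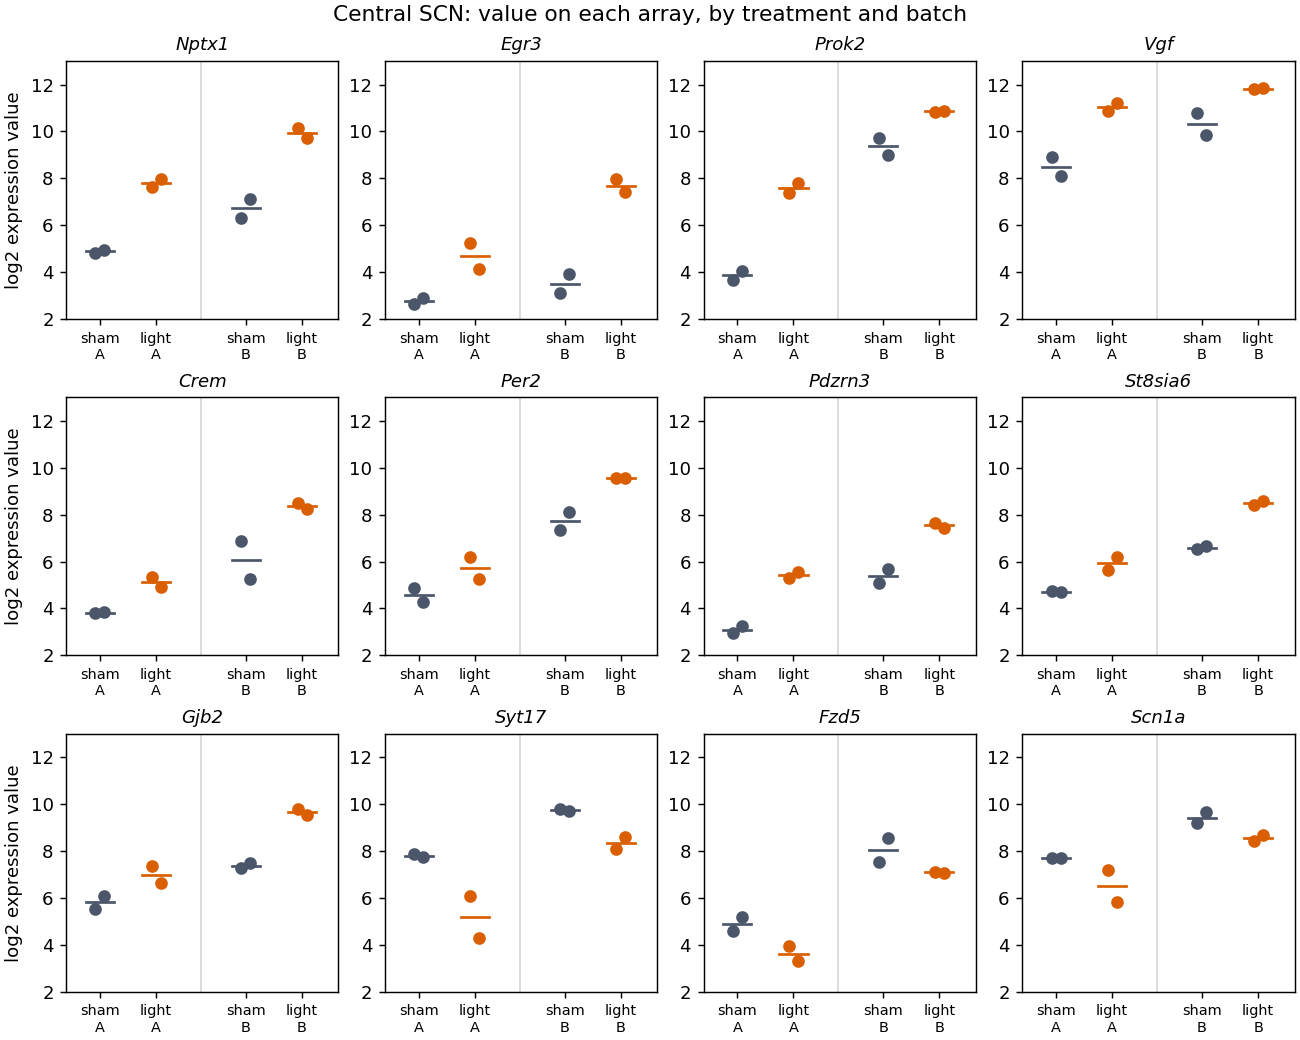
Log2 expression value (vertical axis) of 12 genes on each of the 8 central arrays, by treatment and batch; points are arrays and lines are means of 2. In each panel the light and sham arrays of a batch do not overlap, with light higher except for Syt17, Fzd5 and Scn1a, and for Nptx1 the 4 light arrays lie between 7.61 and 10.16.

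Read as lists, these groups held a few called members each, and a common shift of a list was not tested. Of 26 later activity-dependent genes tested, 4 rose (Nptx1, Vgf, Crem and Pcsk1) and 0 fell, and the median difference of the list was 0.14. Of 28 neuropeptide precursor and secretory granule genes, 4 rose (Vgf, Chga, Pcsk1 and Prok2), 0 fell, and the median was 0.11; without dorsal light array 4, Avp also rose and cholecystokinin (Cck) fell. Among 18 synapse organizers, Nptx1 and C1ql3 rose and the median was -0.13. A positive difference was present in 14 of the 26, 17 of the 28 and 5 of the 18 genes, beside 36.1% of all tested genes. The medians compare with -0.08 over all tested genes, of which 0.296% rose and 0.0889% fell. These shares are also the background for the counts of the other lists below. The lists were chosen with earlier results of these data known, so the counts of changed members are a description. Penk, the enkephalin precursor, measured 8.81, 8.53, 9.57 and 9.65 after light and 8.23, 7.83, 8.77 and 8.40 after sham, without overlap in either batch, and missed the threshold (0.83 ± 0.21, adjusted p = 0.106).

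The immediate early transcription factors were mostly not called at 3.5 h. Of 19 tested, Egr3 rose, 0 fell, and the median was 0.09. Fosb was 1.37 ± 0.44 (adjusted p = 0.308) and Egr2 was 0.70 ± 0.28 (adjusted p = 0.492). Fos measured 5.62, 6.55, 8.45 and 8.50 after light and 5.07, 6.20, 9.05 and 10.91 after sham (-0.53 ± 0.44, adjusted p = 0.872), and Egr1 differed by -0.04 ± 0.26 (adjusted p = 0.994). The signs of both changed with the batch and, for Egr1, with the scaling of the arrays. Fosl2 measured 8.68, 9.38, 11.83 and 11.83 after light and 3.83, 5.32, 11.99 and 11.35 after sham, a gap of 4.45 in batch A but 0.16 in batch B (2.31 ± 0.75, adjusted p = 0.32). Nr4a1 was the reverse in kind, at -0.02 in batch A and -2.94 in batch B (-1.48 ± 0.53, adjusted p = 0.392). Bdnf (-0.08 ± 0.46, adjusted p = 0.994), Sik1 (0.25 ± 0.17, adjusted p = 0.81) and Rasd1 (-0.06 ± 0.23, adjusted p = 0.992), all known as light-responsive in the SCN, did not pass, and the signs of Bdnf and Rasd1 changed with the batch and the scaling.

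Among the 14 feedback inhibitors of MAP kinase signalling that were tested, 0 passed and the median was 0.13. Without dorsal light array 4, Spred3 rose (adjusted p = 0.0175) and Dusp7 fell (adjusted p = 0.00588). The 4 with the smallest p were Spred3 (1.20 ± 0.28, adjusted p = 0.0614), the phosphatases Dusp4 (1.31 ± 0.38, adjusted p = 0.21) and Dusp1 (1.00 ± 0.30, adjusted p = 0.234), and Dusp7 (-1.14 ± 0.41, adjusted p = 0.392). Dusp4 measured 5.87, 6.07, 9.50 and 9.37 after light and 3.18, 4.36, 9.02 and 9.01 after sham, so that its groups were apart in both batches but by 2.20 in one and 0.42 in the other. Socs3, which inhibits cytokine signalling, was 1.17 ± 0.52 (adjusted p = 0.557).

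Per2 was the core clock gene that changed. This repressor of the clock's feedback loop measured 6.19, 5.26, 9.56 and 9.58 after light and 4.89, 4.30, 7.35 and 8.13 after sham, a difference of 1.48 ± 0.27 (2.80-fold, adjusted p = 0.00949). The light arrays were above the sham arrays in both batches, light array 2 being the lowest of its group. Its adjusted p rose to 0.0606 without sham array 3. Per1, the partner gene that light induces early, measured 4.13, 4.16, 7.28 and 7.0 after light and 3.93, 3.63, 6.19 and 5.98 after sham, apart in both batches but not called (0.71 ± 0.38, adjusted p = 0.686).

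Of 16 core clock genes tested, Per2 rose, 0 fell, and the median was 0.16. The nearest to the threshold were Rorb and Rora, nuclear receptors that activate Arntl: Rorb measured 6.93, 7.03, 9.61 and 9.89 after light and 5.94, 6.19, 9.21 and 9.04 after sham (0.77 ± 0.18, adjusted p = 0.0551), and Rora differed by 0.96 ± 0.26 (adjusted p = 0.157). Without dorsal light array 4 both passed, Rorb at 0.013 and Rora at 0.00171, so that 3 of the 16 rose, and without both standing-apart arrays Arntl passed as well (adjusted p = 0.0403). Arntl2 differed by -0.95 ± 0.33 (adjusted p = 0.369), Per3 by -0.68 ± 0.32 (adjusted p = 0.607) and Cry2 by -0.56 ± 0.33 (adjusted p = 0.752). Cry1 (0.31 ± 0.15), Arntl (0.35 ± 0.20) and Clock (0.34 ± 0.18) had adjusted p from 0.647 to 0.73. The repressor Nr1d1 (-0.13 ± 0.21, adjusted p = 0.961) and the output factor Dbp (-0.05 ± 0.20, adjusted p = 0.993) were near 0, and their signs depended on the batch and the scaling. Rgs16, which tunes G protein signalling with the time of day, was 1.51 in batch A and -0.10 in batch B (0.71 ± 0.32, adjusted p = 0.578).

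The peptides that define the SCN were not among the changed genes, apart from Prok2. Vip measured 11.81, 11.66, 12.27 and 12.32 after light and 11.62, 11.24, 11.79 and 12.36 after sham (0.26 ± 0.42, adjusted p = 0.961). Grp differed by -0.04 ± 0.20 (adjusted p = 0.994), with a sign that changed with the batch and the scaling. Avp measured 6.39, 6.94, 7.89 and 8.39 after light and 5.33, 6.23, 7.55 and 6.84 after sham, higher on the light arrays of each batch but not called (0.92 ± 0.35, adjusted p = 0.446, or 0.0359 without dorsal light array 4). Of 12 core markers tested 0 changed, with a median of -0.11, and without dorsal light array 4 Rorb rose and Cck, which is on both lists, fell. Of 9 shell markers, C1ql3 and Prok2 rose and the median was -0.00468. Among the other shell genes, Cck differed by -1.14 ± 0.29 (adjusted p = 0.107, or 0.042 without dorsal light array 4) and the vasopressin receptor gene Avpr1a by -1.04 ± 0.31 (adjusted p = 0.23). The median of the core list was above 0 in batch B and under median centring, and that of the shell list was above 0 under median centring and quantile scaling.

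Promoters of 41 of the 52 changed genes, 31 raised and 10 lowered, were in the RefSeq table of windows from 250 bases before to 50 bases after a gene's start (build GRCm38.p6, 27025 genes). Nptx1, Megf10, Vgf, Egr3, Crem, Fzd8, Per2, Creb3l1, S100a10, Neat1 and Syt17 had no window there. Their promoters were not searched, so the counts below leave out several of the main light-response genes. The 8-letter cAMP response element TGACGTCA occurred in the windows of 2 raised genes, Pcsk1 and Tinf2 (6.45% of 31), of 0 lowered genes, and of 2.03% of all genes. They are shown because CREB and CREM bind this element and Pcsk1 belongs to the peptide-processing group above. The capitals mark the element, which lies 78 to 71 bases before the start of Pcsk1 (chr13:75089607-75089906, plus strand) and 56 to 49 bases before that of Tinf2 (chr14:55681768-55682067, minus strand); both are written 5′ to 3′ along the gene.
Pcsk1: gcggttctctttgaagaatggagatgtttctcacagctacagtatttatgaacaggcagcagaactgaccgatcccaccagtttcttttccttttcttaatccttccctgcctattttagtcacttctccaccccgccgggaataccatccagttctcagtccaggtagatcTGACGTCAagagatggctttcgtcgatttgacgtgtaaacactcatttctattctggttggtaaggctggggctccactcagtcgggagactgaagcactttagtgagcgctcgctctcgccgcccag
Tinf2: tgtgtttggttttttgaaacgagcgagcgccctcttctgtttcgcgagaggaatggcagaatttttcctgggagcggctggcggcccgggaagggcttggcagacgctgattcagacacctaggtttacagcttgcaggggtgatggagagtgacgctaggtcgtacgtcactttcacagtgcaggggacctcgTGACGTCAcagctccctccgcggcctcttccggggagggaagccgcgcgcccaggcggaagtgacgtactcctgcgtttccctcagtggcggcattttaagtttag

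The shorter site TGACG, which the full element contains, was found on either strand in windows of 14 of 31 raised genes (45.2%), 4 of 10 lowered genes (40%) and 23% of all genes. In Chga, shown for its place in the same peptide group, it lies 44 to 40 bases before the start (chr12:102554691-102554990, plus strand).
Chga: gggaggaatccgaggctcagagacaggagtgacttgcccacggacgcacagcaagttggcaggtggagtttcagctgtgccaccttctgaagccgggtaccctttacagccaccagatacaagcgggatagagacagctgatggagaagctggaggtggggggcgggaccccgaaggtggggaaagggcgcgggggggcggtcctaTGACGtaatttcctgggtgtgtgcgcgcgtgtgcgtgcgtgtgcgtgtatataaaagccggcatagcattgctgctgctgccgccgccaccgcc

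The E-box CACGTG, to which the clock's activators bind, was present in the windows of 4 raised genes, Prok2, Sema3e, Ppp1r3c and Trmt61b (12.9% of 31), and of 1 lowered gene, Armc9, against 8.09% of all genes. Prok2, an SCN output, and Sema3e are shown with the E-box in capitals, 135 to 130 bases before the start of Prok2 (chr6:99726343-99726642, minus strand) and 23 to 28 bases after that of Sema3e (chr5:14025026-14025325, plus strand).
Prok2: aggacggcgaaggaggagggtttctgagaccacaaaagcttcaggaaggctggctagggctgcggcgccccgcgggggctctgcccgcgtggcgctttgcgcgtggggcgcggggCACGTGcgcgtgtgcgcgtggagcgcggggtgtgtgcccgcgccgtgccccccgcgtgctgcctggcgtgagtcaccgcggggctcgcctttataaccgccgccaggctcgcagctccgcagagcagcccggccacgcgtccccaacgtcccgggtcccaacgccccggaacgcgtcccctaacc
Sema3e: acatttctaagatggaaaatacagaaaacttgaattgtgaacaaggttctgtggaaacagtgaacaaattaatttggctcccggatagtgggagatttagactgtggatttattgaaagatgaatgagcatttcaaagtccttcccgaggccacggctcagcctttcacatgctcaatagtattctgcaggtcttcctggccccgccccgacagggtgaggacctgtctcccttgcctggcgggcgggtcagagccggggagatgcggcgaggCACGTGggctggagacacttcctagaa

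The Egr site GCGNGGGCG was found on either strand for 3 of 31 raised genes (9.68%: Me1, Tpm4 and Med14), 2 of 10 lowered genes (20%: Ankrd35 and Dsel) and 6.27% of all genes. The serum response element was found for 0 of the 41 changed genes with a window and 1.81% of all genes. Egr3, Crem, Nptx1, Vgf and Per2 were not among the genes searched. A match is a description of the letters in these 300 bases and not a binding site, and with 31 and 10 genes, some with 2 windows, the shares are coarse. All genes here means the 27025 with a window, whether or not they were tested on the arrays.

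Several raised genes encode proteins of the cell surface and its surroundings. Pdzrn3, a ubiquitin ligase that sits under membrane receptors through its PDZ domains, measured 5.30, 5.56, 7.66 and 7.45 after light and 2.96, 3.24, 5.10 and 5.67 after sham (2.25 ± 0.29, adjusted p = 0.000371). Nephronectin (Npnt), an integrin ligand of the extracellular matrix, measured 5.13, 5.77, 5.86 and 6.08 after light and 3.21, 4.02, 3.77 and 4.17 after sham (1.92 ± 0.33, adjusted p = 0.00525). Both were clearly apart in the 2 batches, from sham means near or below 4 in at least 1 batch. Semaphorin 3E (Sema3e), a secreted guidance cue that binds plexin D1, measured 6.43, 7.33, 8.28 and 7.84 after light and 3.56, 5.49, 7.05 and 6.14 after sham (1.91 ± 0.43, adjusted p = 0.0497). Its sham arrays were the most scattered of this group, its call was the one nearest the threshold, and without sham array 1 its adjusted p was 0.215. Of its 3 other tested probe sets, all went the same way, the clearest by 2.09 ± 0.31 (adjusted p = 0.002 over all probe sets).

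Connexin 26 (Gjb2), a gap junction protein, measured 7.35, 6.64, 9.81 and 9.55 after light and 5.53, 6.09, 7.27 and 7.50 after sham (1.74 ± 0.29, 3.35-fold, adjusted p = 0.00462). It was the member of 10 tested connexins and pannexins that changed, and without dorsal light array 4 Gjb6 fell as well. St8sia6, a sialyltransferase that modifies glycoproteins, measured 5.63, 6.21, 8.39 and 8.58 after light and 4.76, 4.69, 6.55 and 6.65 after sham. It rose by 1.54 ± 0.16 (2.91-fold, adjusted p = 2.4e-05), and its 2 other probe sets also passed, at 1.77 and 1.18. Megf10, an engulfment receptor best known in astrocytes, rose by 1.47 ± 0.18 (adjusted p = 0.000135), and Il1rap, the accessory chain of the interleukin-1 receptor, which also acts as a synaptic adhesion protein, by 1.46 ± 0.22 (adjusted p = 0.00178). Of the genes of these 2 paragraphs, Sema3e alone lost its call when 1 central array was left out.

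Other raised genes act in the cytoskeleton beneath the membrane or carry it there. Iqgap2, a scaffold for Rac and Cdc42, measured 4.20, 3.46, 7.34 and 6.83 after light and 3.07, 2.75, 4.39 and 4.04 after sham, a batch A gap of 0.92 and a batch B gap of 2.87 (1.89 ± 0.35, adjusted p = 0.0113). The batch A values are at or below the filter level, so the gap there is the less certain. Ezrin (Ezr, 1.20 ± 0.22), which ties actin to the membrane, tropomyosin 4 (Tpm4, 1.30 ± 0.25), the actin-associated Pdlim4 (1.54 ± 0.34) and the annexin partner S100a10 (1.45 ± 0.28) rose with adjusted p from 0.0113 to 0.0485. Ehd3, a membrane-trafficking ATPase, rose by 0.99 ± 0.17 (adjusted p = 0.00525). Ehd3 passed without any 1 central array, while the highest adjusted p of Iqgap2, Ezr and Tpm4 was 0.0674, 0.0662 and 0.0798, each without light array 3, and that of S100a10 and Pdlim4 was 0.0718 and 0.189, both without sham array 2. Of 24 Ras and small GTPase regulators tested, Iqgap2 rose, 0 fell, and the median was -0.13, which was above 0 in batch B. Without dorsal light array 4, Rnd3 also rose and Rasgrp1 fell.

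A further set encodes enzymes. Gch1, GTP cyclohydrolase 1, the first enzyme of tetrahydrobiopterin synthesis, measured 3.75, 4.28, 5.98 and 5.62 after light and 2.83, 2.86, 3.68 and 3.64 after sham (1.65 ± 0.27, adjusted p = 0.00495). All its sham arrays were below the filter level. Hpgd, which inactivates prostaglandins (1.08 ± 0.17), Nudt6 (1.33 ± 0.19) and the cytosolic malic enzyme Me1 (0.86 ± 0.15) rose with adjusted p from 0.0013 to 0.00525, and these 4 genes kept their call without any 1 central array. The other tested probe set of Nudt6, with a mean of 4.35, was at 0.001 ± 0.21. Ppp1r3c, which targets a phosphatase to glycogen (0.94 ± 0.19), Eprs, a transfer RNA synthetase (1.00 ± 0.20), and the transfer RNA methyltransferase Trmt61b (0.83 ± 0.17) rose with adjusted p from 0.0174 to 0.0293. Without 1 array, their adjusted p reached 0.114, 0.112 and 0.119, in that order, the arrays being sham 2, sham 3 and light 1.

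The cAMP phosphodiesterase gene Pde4d measured 6.99, 7.26, 8.66 and 8.97 after light and 6.54, 6.32, 8.28 and 8.42 after sham. This was the smallest of the increases (0.58 ± 0.13, 1.49-fold, adjusted p = 0.0394), with close but separate groups, and its adjusted p was 0.189 without sham array 2. Of 32 cAMP and CREB signalling genes, Crem and Pde4d rose, 0 fell, and the median was -0.07, which was above 0 in batch B, under median centring and array weights, and without both standing-apart arrays.

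Genes of the nucleus made up the next set. Creb3l1, a CREB-related factor held in the endoplasmic reticulum membrane until it is cleaved, rose by 1.48 ± 0.27 and the forkhead factor Foxn4 by 1.40 ± 0.25 (adjusted p = 0.00949 for both). Wwtr1, known as TAZ, a coactivator of the Hippo pathway, rose by 0.96 ± 0.17 (adjusted p = 0.00592), the Mediator subunit Med14 by 1.14 ± 0.24 (adjusted p = 0.0341) and the nuclear envelope protein emerin (Emd) by 1.05 ± 0.15 (adjusted p = 0.000999). Tinf2, which holds the telomere-protecting shelterin complex together, measured 5.34, 5.36, 7.40 and 7.50 after light and 4.51, 4.30, 5.86 and 6.22 after sham (1.18 ± 0.18, adjusted p = 0.00236), while a second probe set of the gene, with a mean of 3.78, was at -0.08. The long noncoding RNA Neat1, the scaffold of paraspeckles, rose by 1.32 ± 0.27 (adjusted p = 0.0242). Wwtr1, Emd and Tinf2 passed without any 1 central array. Creb3l1, Foxn4 and Neat1 had adjusted p of 0.0608, 0.0608 and 0.114 without sham array 2, and Med14 had 0.139 without sham array 3. The remaining raised genes were Ctla2a (1.19 ± 0.22), Tceal9 (0.73 ± 0.16) and BC030500 (0.65 ± 0.12), with adjusted p from 0.0108 to 0.0394. They too lost the call without at least 1 array, Ctla2a at 0.0606 without sham array 3, BC030500 at 0.0608 without sham array 2 and Tceal9 at 0.153 without light array 2. Ctla2a shares a near-identical copy with Ctla2b, and the probe set annotated to both rose by 1.06 ± 0.20 (adjusted p = 0.0221 over all probe sets), so the 2 genes may not be separable here.

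Among the 12 lowered genes, Syt17 fell furthest. This atypical synaptotagmin, which works in vesicle traffic, measured 6.06, 4.29, 8.10 and 8.61 after light and 7.87, 7.74, 9.78 and 9.73 after sham. It fell by 2.02 (SE 0.41, adjusted p = 0.0256), from sham arrays that were close to each other to light arrays that were not, light array 2 being the lowest. Without light array 2 the difference was -1.57 (adjusted p = 0.117). Of 20 synaptotagmins and fusion proteins tested, Syt17 fell and 0 rose. The nearest others were Syt4 (0.69 ± 0.26, adjusted p = 0.441, or 0.046 without dorsal light array 4), Syt3 (-0.36 ± 0.26, adjusted p = 0.823) and Syt1 (-0.19 ± 0.17, adjusted p = 0.881). The list's median of -0.08 was above 0 in batch B, under median centring and array weights, and without both standing-apart arrays.

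The Wnt receptors Fzd8 and Fzd5, which can signal through beta-catenin, both fell. Fzd8 measured 3.59, 3.53, 6.34 and 6.28 after light and 4.94, 4.97, 6.99 and 7.18 after sham (-1.09 ± 0.20, adjusted p = 0.00949), and Fzd5 measured 3.93, 3.33, 7.10 and 7.08 after light and 4.57, 5.20, 7.55 and 8.57 after sham (-1.11 ± 0.21, adjusted p = 0.0113). All light arrays of batch A were below the filter level for both genes, so the size of the fall there is uncertain. Of 21 Wnt receptors and modulators tested, these 2 fell, 0 rose, and the median was -0.16. Fzd7 differed by 0.72 ± 0.24 (adjusted p = 0.334) and the transcription factor gene Lef1 by -0.70 ± 0.28 (adjusted p = 0.475). Without sham array 2 the adjusted p was 0.0532 for Fzd8 and 0.0661 for Fzd5, and without light array 2 it was 0.0359 and 0.0533.

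Scn1a, the sodium channel Nav1.1, measured 7.19, 5.84, 8.43 and 8.70 after light and 7.72, 7.69, 9.20 and 9.66 after sham (-1.03 ± 0.20, adjusted p = 0.0167). The groups were apart in both batches, and without sham array 4 the adjusted p was 0.0703. Of 8 voltage-gated sodium channel genes tested, Scn1a fell, 0 rose, and 0 had a positive difference, with a median of -0.36. Of all 13494 tested genes, 4877 (36.1%) had a positive difference. The 3 next were Scn8a (-0.48 ± 0.25, adjusted p = 0.668), Scn3a (-0.27 ± 0.14, adjusted p = 0.675) and Scn3b (-0.60 ± 0.38, adjusted p = 0.788). The median was -0.54 in batch A and -0.16 in batch B, beside -0.22 and 0.05 over all tested genes.

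Pdgfa, a growth factor for oligodendrocyte precursors, measured 8.90, 8.61, 11.37 and 11.21 after light and 9.87, 9.97, 11.73 and 11.84 after sham (-0.83 ± 0.14, adjusted p = 0.00565). It was the member of 27 secreted growth factors and cytokines that changed. Ankrd35, an ankyrin repeat protein, measured 5.20, 5.06, 7.74 and 7.94 after light and 6.22, 5.99, 9.16 and 8.72 after sham (-1.04 ± 0.17, adjusted p = 0.00462). These were the 2 lowered genes that passed without any 1 central array, and their groups did not overlap in either batch.

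Pitpnc1, a phosphatidylinositol transfer protein, measured 5.52, 5.43, 8.68 and 8.32 after light and 6.32, 6.71, 9.61 and 9.34 after sham (-1.01 ± 0.20, adjusted p = 0.022). All 7 of its other tested probe sets went down as well, 1 of them past the threshold (-1.11 ± 0.22, adjusted p = 0.024 over all probe sets). Plch1, a phospholipase C, measured 4.50, 3.93, 6.86 and 6.74 after light and 4.50, 5.01, 7.73 and 7.70 after sham (-0.73 ± 0.16, adjusted p = 0.0428). Light array 1 and sham array 1 had the same value to the second decimal, the one overlap among the changed genes. Dsel, an enzyme that forms dermatan sulfate, measured 7.10, 6.35, 8.92 and 9.05 after light and 7.90, 7.82, 9.91 and 9.50 after sham (-0.93 ± 0.18, adjusted p = 0.015). Without sham array 3 the adjusted p was 0.112 for Pitpnc1 and 0.0792 for Dsel, and without sham array 2 it was 0.189 for Plch1.

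A pair of genes for proteins of the primary cilium, Cc2d2a and Armc9, fell. Cc2d2a measured 5.00, 4.38, 7.63 and 7.31 after light and 5.70, 5.92, 8.30 and 7.84 after sham (-0.86 ± 0.19, adjusted p = 0.0394), and Armc9 measured 4.65, 4.43, 7.32 and 7.59 after light and 5.74, 6.29, 8.43 and 7.68 after sham (-1.03 ± 0.23, adjusted p = 0.0485). In batch B both were separated by narrow gaps, and 3 of 4 other Armc9 probe sets, with means from 3.56 to 4.72, went the other way. The matrix-remodelling associated gene Mxra7 measured 7.68, 6.93, 8.84 and 8.91 after light and 8.37, 8.06, 9.70 and 9.49 after sham (-0.82 ± 0.17, adjusted p = 0.0357). Without sham array 2 the adjusted p was 0.175 for Cc2d2a and 0.233 for Armc9, and without sham array 3 it was 0.149 for Mxra7.

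Most calls of lowered genes were lost without light array 2 or sham array 2. Light array 2 read below light array 1 for all 12 lowered genes and for 21 of the 40 raised genes (52.5%), beside 76.9% of all tested genes. Without it, 4 of the 12 lowered genes passed (Ankrd35, Pdgfa, Fzd8 and Scn1a) and 32 of the 40 raised. Their adjusted p without it was 0.0109, 0.0207, 0.0359 and 0.0328. Without sham array 2, 2 of the 12 passed, Ankrd35 and Pdgfa. With both standing-apart arrays left out, 9 of the 12 and 39 of the 40 passed. Within batch A alone or batch B alone 0 of the 12 passed, against 6 and 5 of the raised genes. What sets light array 2 apart was not tested.

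**Figure D3:**
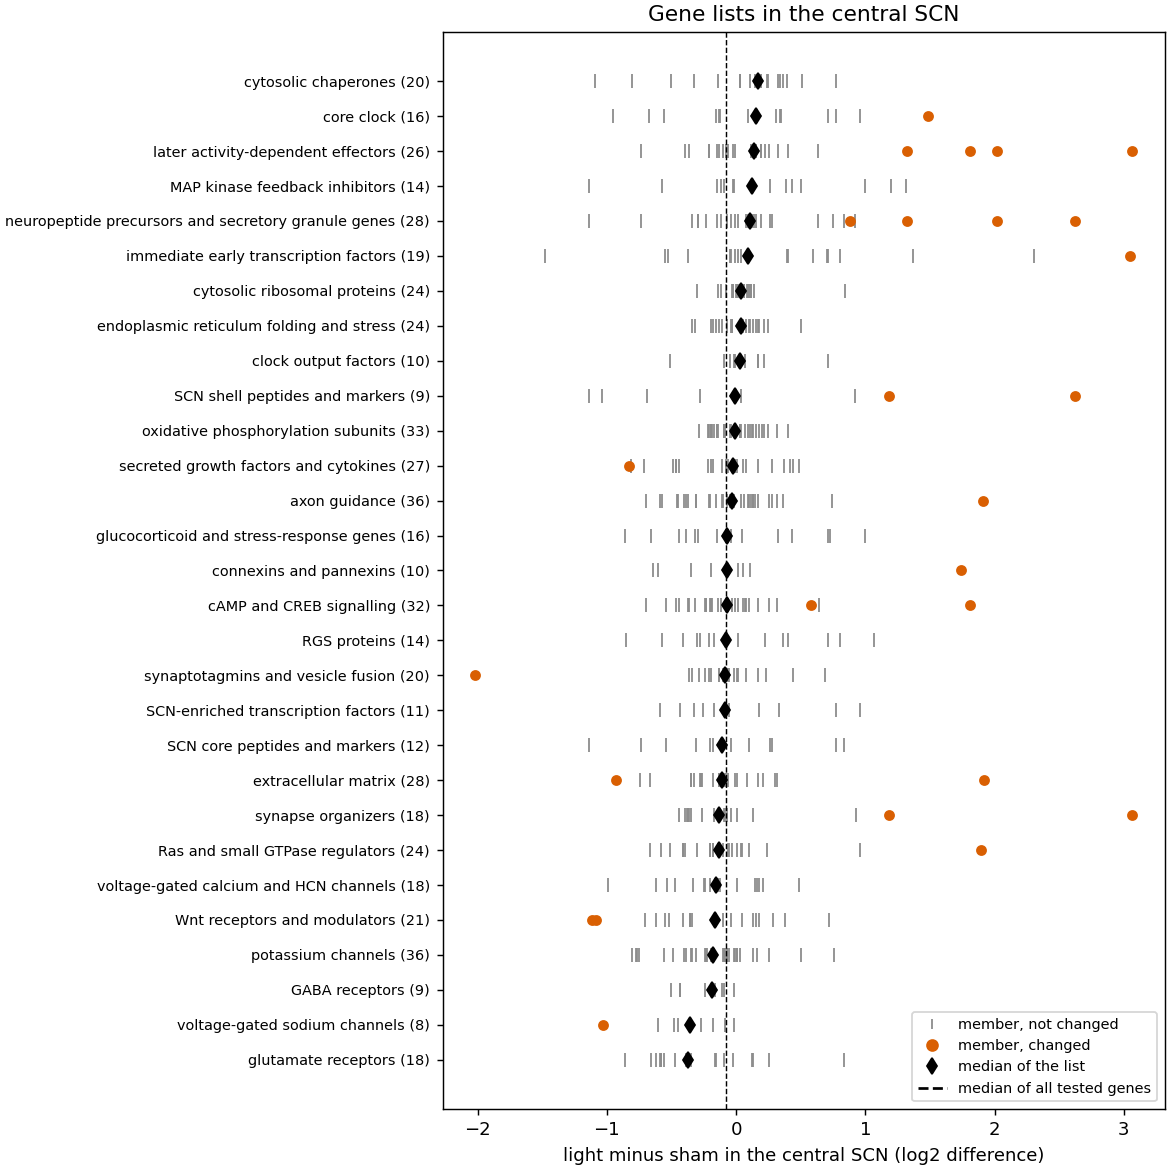
Light minus sham in the central SCN (horizontal axis, log2 difference) for the tested members of 29 gene lists, with the number tested in parentheses; ticks are members that did not pass, filled circles members that changed, diamonds list medians, and the dashed line the median of all tested genes at -0.08. List medians lie between -0.37 (glutamate receptors) and 0.17 (cytosolic chaperones), and the changed members lie far from the median of their list.

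Receptors and channels formed the low end of the list medians. With all arrays, most genes of any kind lay below 0, with a positive difference in 36.1% of all tested. This shift varied with the arrays: the median of all tested genes was 0.000185 without central light array 2 and 0.05 in batch B alone. Of 18 glutamate receptor genes 0 changed and 4 had a positive difference, with a median of -0.37. Grin2b (-0.86 ± 0.23, adjusted p = 0.157, but 0.00846 without dorsal light array 4 and 0.0268 without both standing-apart arrays), Gria3 (-0.66 ± 0.19, adjusted p = 0.199) and Gria4 (-0.59 ± 0.19, adjusted p = 0.292) were below 0 and Grm4 (0.83 ± 0.27, adjusted p = 0.308) above it. Of 9 GABA receptor genes 0 changed and 0 had a positive difference, beside the same 36.1%, with a median of -0.19, led by Gabrb1 (-0.43 ± 0.14, adjusted p = 0.327) and Gabrb2 (-0.44 ± 0.16, adjusted p = 0.397). Gabra3 (-0.24 ± 0.18) and Gabra5 (-0.50 ± 0.38) had adjusted p of 0.837 and 0.842. Median centring moved the median of all genes from -0.08 to 0.04 and left the glutamate, sodium channel and GABA receptor medians below it, at -0.25, -0.24 and -0.07. Without both standing-apart arrays these list medians were -0.28, -0.22 and -0.12, beside -0.000298 over all tested genes. Of 36 potassium channel genes (median -0.18) and 18 calcium and HCN channel genes (median -0.15) 0 changed, and both medians were above 0 in batch B. Without dorsal light array 4, Cacna1c of the calcium channels fell.

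Lists for general cell functions had 0 called members. With 0.385% of all tested genes changed, 0 is also what most lists of these sizes would hold. Among 20 cytosolic chaperones, 24 endoplasmic reticulum folding genes, 16 glucocorticoid and stress-response genes, 24 ribosomal protein genes and 33 oxidative phosphorylation genes, 0 passed, and the medians were 0.17, 0.04, -0.07, 0.04 and -0.00896. The endoplasmic reticulum and ribosomal medians were below 0 in batch A, the stress-response median was above 0 in batch B and under median centring and quantile scaling, and the oxidative phosphorylation median was above 0 under each of the 6 other scalings and array choices except batch A alone. Without dorsal light array 4, the chaperone Hspb8 and the stress-response gene Ddit4 fell. In bulk samples such as these, fewer cells of a type and less RNA per cell cannot be told apart.

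Of the 9 marker lists for cell types the laser could have included, 0 of 83 tested markers changed, beside 0.385% of all tested genes. At that share, a count of 0 in 83 says little about the cell types present. Without dorsal light array 4, Gfap and Vim rose and Gjb6 fell. The mean level of the 12 astrocyte markers was 7.30 to 7.69 after light and 7.75 to 7.78 after sham in batch A, and 9.50 to 9.56 and 9.44 to 9.55 in batch B. That of the 12 neuron markers was 7.75 to 8.12 and 8.07 to 8.25 in batch A, and 9.61 on both light arrays against 9.66 and 9.71 in batch B. Oligodendrocyte markers (11 tested) read 4.70 and 5.51 after light and 5.23 and 5.45 after sham in batch A, where light array 2 was the lowest, and 6.75 to 6.86 and 6.50 to 6.97 in batch B. Meningeal markers (7 tested) read 4.26 on both light arrays of batch B and 4.87 and 4.96 on the sham arrays. The list medians ran from -0.35 for meningeal to 0.28 for blood markers, the latter on 4 tested genes. The part of these levels in the gene results was not tested.

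Among these markers, 2 of 12 for astrocytes and 1 of 6 for ependymal cells and tanycytes had a positive difference, and they include a pair of intermediate filament genes, Gfap and Vim. Vim, the vimentin gene of astrocytes, tanycytes and vessels, measured 8.65, 8.55, 8.90 and 9.01 after light and 6.58, 6.61, 8.39 and 8.26 after sham (1.32 ± 0.30, adjusted p = 0.0566). Gfap measured 8.73, 8.25, 9.30 and 9.57 after light and 8.06, 7.32, 8.15 and 8.46 after sham (0.97 ± 0.26, adjusted p = 0.155). In both genes the groups were apart in each batch. Both passed without dorsal light array 4, Vim at 0.00304 and Gfap at 0.013, and without both standing-apart arrays, at 0.0133 and 0.012. The other genes just short of the threshold were Akap2, Elmo2, Cd68, Ddit4l, Ankrd63, Rorb, Fndc9, B230216N24Rik and Boc, with adjusted p from 0.051 to 0.0578. With Vim, these made up the 10 nearest misses, and all 10 passed without dorsal light array 4. With 1 central array left out, the highest adjusted p of each was 0.205 to 0.243. In the fit to the 8 central arrays alone, Fndc9 passed (adjusted p = 0.0293) and the rest had 0.14 to 0.336. Ankrd63 (-1.50 ± 0.34) and Ddit4l (1.66 ± 0.37) had the largest differences of the 10. A further probe set of Ddit4l did pass in limma, at 2.15 ± 0.30 (adjusted p = 0.000875 over all probe sets). Another, with a mean of 3.49, did not (0.25 ± 0.17, adjusted p = 0.943). The miss of Ddit4l therefore depends on the probe set that stands for it.

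The light effect was set against that of the ventral and dorsal SCN for the genes chosen by their central values. For the 40 raised genes the median was 1.32 in the central, 1.48 in the ventral and 0.93 in the dorsal region, and for the 12 lowered genes it was -1.02, -0.55 and -0.56. Choosing on the central values favours large central ones, so these medians are a description. The ventral difference had the same sign as the central one for all 52 genes and the dorsal difference for 50, beside 9234 and 8250 of the 13494 genes tested. Of the 52, 38 also passed in the ventral SCN, where 97 genes changed (0.719%), which is 73.1% of the central and 39.2% of the ventral list. In the dorsal SCN 24 genes changed (0.178%), and the 11 shared genes were 21.2% of the central and 45.8% of the dorsal list. These dorsal figures include light array 4; without it 41 genes changed there (0.304%), 17 of the 52 among them (32.7% of the central and 41.5% of the dorsal list), the dorsal medians were 0.87 and -0.62, and 14 genes were called in all 3 regions, Egr3 and Il1rap not among them. With all arrays, the 9 genes called in all 3 regions were Nptx1, St8sia6, Megf10, Emd, Il1rap, Egr3, Creb3l1, S100a10 and Pdlim4.

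**Figure D4:**
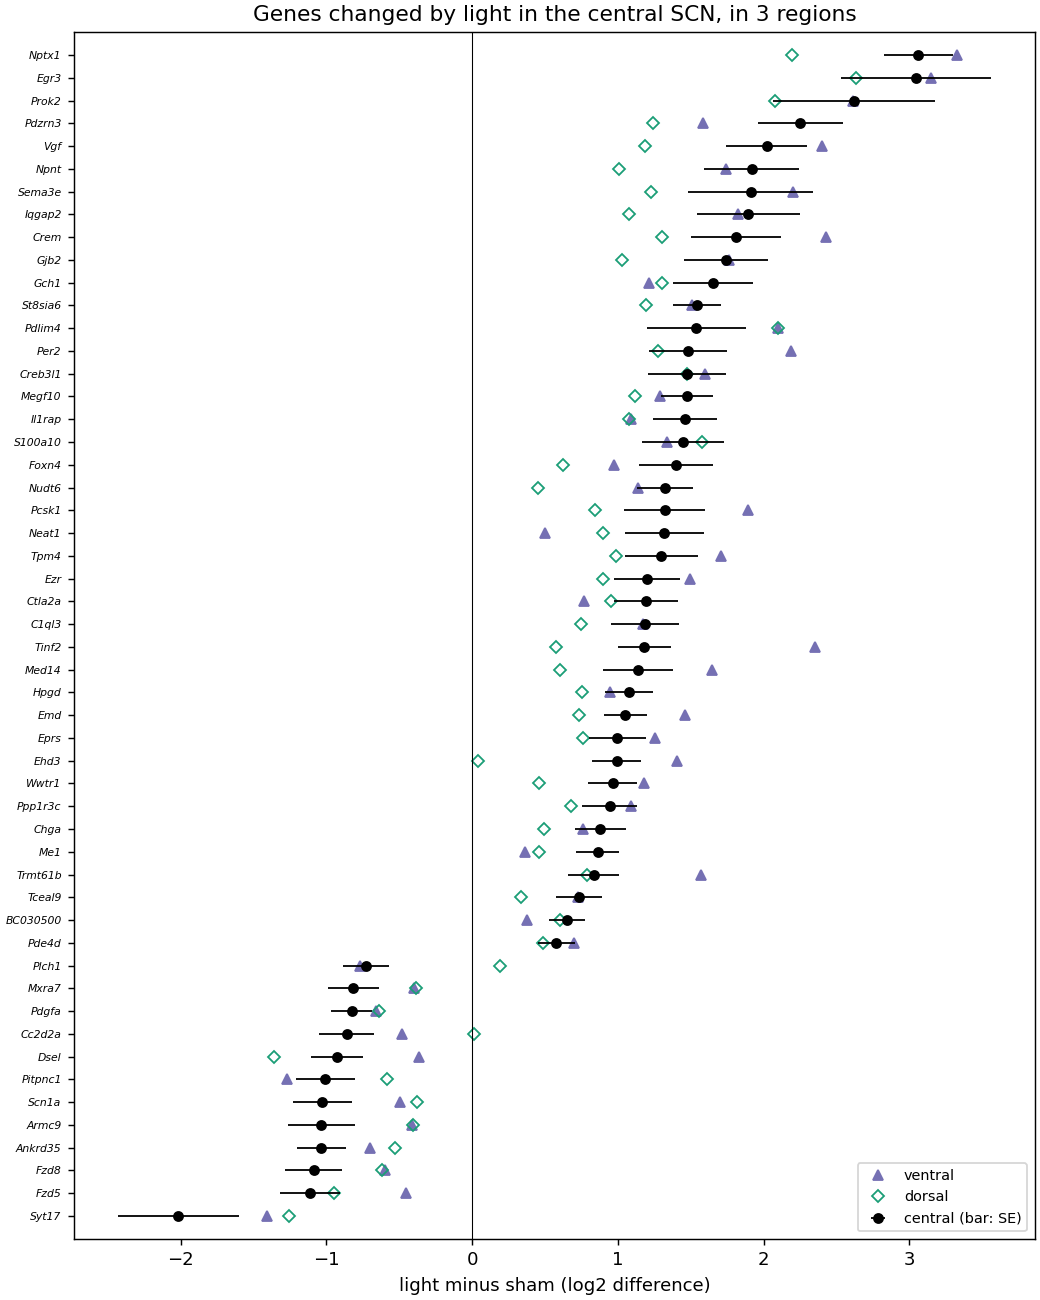
Light minus sham (horizontal axis, log2 difference) of the 52 changed genes in the central (filled circles with SE bars), ventral (triangles) and dorsal (open diamonds) SCN. All ventral values lie on the same side of 0 as the central ones; the dorsal values of Plch1 (0.19) and Cc2d2a (0.01) lie on the other side, the latter at -0.0084 without dorsal light array 4.

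The differences between regions were tested gene by gene in the same limma fit. Between central and ventral 0 genes passed (111 at an unadjusted p under 0.05), and between central and dorsal 0 genes passed (388 at an unadjusted p under 0.05). If no gene differed between regions, a share of about 0.05 of the 13494 tested genes would have such a p. Both 111 and 388 are below that share, so they are no sign of regional differences. Why they are lower was not tested. Both counts of passing genes were 0 under each alternative that held the regions compared. The smallest p between central and ventral was that of Tinf2, which differed by 1.18 in the central, 2.35 in the ventral and 0.58 in the dorsal SCN (central minus ventral -1.17 ± 0.26, adjusted p = 1.0 in limma). C5ar1, Trmt61b, Rem2 and Cd93 followed in the same direction and Prmt9, Efcab12, Ccdc183, Pde8a and Elmo1 in the other, with the same adjusted p.

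Against the dorsal SCN, the changed genes Ehd3, Plch1 and Nudt6 were among those with the smallest p. Ehd3 was 0.99 in the central, 1.41 in the ventral and 0.04 in the dorsal region (central minus dorsal 0.95 ± 0.24, adjusted p = 0.984 in limma). Plch1 was -0.73, -0.77 and 0.19 (-0.92 ± 0.23, adjusted p = 0.984). Smad2 (-0.88 ± 0.21), Neto1 (-1.20 ± 0.29), Nectin3 (-1.22 ± 0.30) and Tm6sf2 (-1.09 ± 0.29) were lower, and Trh (1.66 ± 0.53), Rgs10 (0.94 ± 0.28), Nudt6 (0.87 ± 0.27) and Pabpc1l (0.65 ± 0.19) higher, in the central than in the dorsal response, all with the same adjusted p of 0.984. Without dorsal light array 4 the central minus dorsal difference was 0.79 ± 0.21 for Ehd3 and -0.90 ± 0.23 for Plch1, and 0 genes passed.

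A group of 12 genes passed in the central SCN and in neither other region: the raised genes Me1, Foxn4, Ctla2a and Neat1, and the lowered genes Ankrd35, Fzd8, Fzd5, Scn1a, Syt17, Mxra7, Cc2d2a and Armc9. The differences between regions did not pass for any of them, the adjusted p of the differences being 1.0 against the ventral and 0.984 against the dorsal SCN. Without dorsal light array 4 the group was reduced to 8 genes: Me1, Neat1, Fzd5, Scn1a, Syt17, Mxra7, Cc2d2a and Armc9. Syt17 fell by 2.02 in the central SCN and differed by -1.41 ± 0.41 in the ventral and -1.26 ± 0.41 in the dorsal SCN, and the central minus ventral difference was -0.61 ± 0.59. Scn1a differed by -0.50 ± 0.20 in the ventral and -0.38 ± 0.20 in the dorsal SCN, and Neat1 by 0.50 ± 0.27 and 0.89 ± 0.27. Fzd5 was -0.45 ± 0.21 in the ventral and -0.95 ± 0.21 in the dorsal SCN.

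Other genes of the light response passed in the ventral SCN and not in the central one. Fosb was 2.40 in the ventral SCN (adjusted p = 0.00699), 1.37 in the central and 0.04 in the dorsal region. Socs3 was 2.98 in the ventral (adjusted p = 0.00386), 1.17 in the central and 1.75 in the dorsal region, or 1.09 there without dorsal light array 4, and Egr2 was 1.38 (adjusted p = 0.0174), 0.70 and 0.36. Per2 was 2.19 in the ventral, 1.48 in the central and 1.27 in the dorsal region, with a central minus ventral difference of -0.70 ± 0.38. That these ventral effects were larger was not shown, since the differences did not pass.

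Of the 52 changed genes, 28 had other tested probe sets, 49 in all. Of these, 41 went in the same direction, that of Nudt6 by 0.001 only, and 7 passed over the 25067 probe sets tested. The 8 that went the other way belonged to Armc9, Crem, Egr3, Il1rap, Prok2 and Tinf2, all with means below 5. Probe sets without a single gene name were tested apart: of 658 with several symbols 3 were higher and 0 lower, and of 5258 with no symbol 5 were higher and 3 lower.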

How the data were processed

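Gene expression was measured on 24 microarrays. Per the labels' protocols, the RNA of laser-cut SCN regions was amplified and labelled in 2 batches. The values used are the authors' deposited log2 expression values, 1 column per array. Per the submitters' processing notes, MAS5, R 3.0.2 and GCRMA 2.32.0 were used, in roles not stated there. The sources used here do not say whether the batches, which differ in scale, were normalized together.

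Of 45101 probe sets, 34945 carry 1 gene symbol, 932 several and 9160 none, and 64 are controls. For each of 18193 genes the probe set with the highest mean was used, and 13494 genes with a log2 value above 4 on at least 4 arrays were tested. limma 3.58.1 (R 4.3.3) fitted 6 group means and the batch to all 24 arrays, with Benjamini-Hochberg adjustment over all tested genes and a threshold of 0.05. The fit was tested on simulated data. Fold changes are 2 to the power of the log2 difference and were not given for genes near the filter level. Precision is limited by having 4 arrays per group.

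The members and gene lists were chosen with earlier results of these data known. Every changed gene could be named. Array values were given for the 12 with the largest difference in each direction, for changed list members, for a panel of light-response and clock genes, and for a few genes beyond these. Each list's 4 smallest p, the 5 smallest p in each direction for a regional difference, and the 10 nearest misses were also described. Alternatives were other scalings, filters, probe set rules, priors and sets of arrays. Promoter windows came from RefSeq (GRCm38.p6).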

Additional observations from a re-analysis of the deposited data

Results flagged for a closer look

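In the 52 changed genes, 104 sets of 4 central arrays (light or sham, adjusted for batch) were screened for an array far from the other 3, and 6 had one. Chance gives about 1 in 20 such sets. Light array 2 was the lowest of its group for Per2 at 5.26 (the others 6.19 to 6.27 on the batch A scale), Fzd5 at 3.33 (3.93 to 4.00) and Dsel at 6.35 (7.03 to 7.16). Sham array 4 was the highest for Med14 at 8.52, or 6.48 on the batch A scale (the others 5.90 to 5.99). Sham array 1 was the lowest for Plch1 at 4.50 (4.93 to 5.01) and the highest for Pdlim4 at 4.42 (3.63 to 3.73).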

How the results depend on the processing

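Against 52 changed genes, 18 passed with the central arrays only, 0 with no batch term (0 of the 52 kept), 8 in batch A only, 5 in batch B only, 86 under median centring, 94 under quantile scaling within batch, 204 with array weights, 164 without dorsal light array 4 and 128 without both standing-apart arrays, an alternative chosen after seeing the data. Leaving out 1 central array gave 24 to 45. Of the calls, 76.9% were higher, against 59.1% without dorsal light array 4 and 58.2% with the replicate number as a block. The block gave 98 genes, 57 higher and 41 lower, with all 52 kept. Deviations of same-numbered central light and sham arrays correlated at 0.28, -0.02, -0.08 and -0.19. Same-numbered arrays of 1 treatment in different regions correlated at -0.21 to 0.56 over 24 pairs. In 14 pairs the own number was the best match, and whether some of these arrays share a source was not tested. With those numbers as a random block, added after seeing the data, 60 genes passed, 49 of the 52 among them (Pcsk1, Cc2d2a and Pdlim4 at 0.0504, 0.053 and 0.0501), and 0 regional differences passed with a random or a fixed block. The other filters, probe set rules and prior gave 50 to 54. Signs turned as follows, and the cause was not tested. In batch A only, Fos was 0.45 and Bdnf 0.31. In batch B only, Nr1d1 was 0.31, Dbp 0.045, Egr1 0.27, Rasd1 0.20, Grp 0.18, Rgs16 -0.098 and Syt3 0.16. With another probe set, Tinf2 was -0.084, Egr3 -0.24, Armc9 0.12, Clock -0.29, Sik1 -0.083 and Scn3b 0.28, and with the mean of probe sets Bdnf was 0.068 and Syt1 0.031. Median centring gave Dbp 0.066, Egr1 0.071, Bdnf 0.038, Rasd1 0.051 and Grp 0.079. Quantile scaling gave Nr1d1 0.053, Egr1 0.12 and Bdnf 0.031, and array weights Nr1d1 0.011, Dbp 0.0034 and Grp 0.036. Without both standing-apart arrays, Nr1d1 was 0.067, Egr1 0.034 and Grp 0.045. Leaving out 1 array moved Nr1d1 from -0.27 to 0.078, Dbp from -0.14 to 0.045, Fos from -0.93 to 0.0076, Egr1 from -0.15 to 0.19, Bdnf from -0.26 to 0.34, Rasd1 from -0.33 to 0.11 and Grp from -0.19 to 0.074. Of the 52 genes, Tinf2, Egr3 and Armc9 reversed with the probe set next in mean. Values near or below 4 are close to background and limit the fold changes there.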
